A study of Mus musculus with 18 samples.

Results

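Liver RNA of mice that received microbiota from alginate oligosaccharide (AOS) treated donors after streptozotocin was compared with liver RNA of untreated controls, to see which differences from control were present after the transplant. The genes described were those at 1 RPKM or more in at least 3 of the 6 libraries of both groups, which were 10229 of the 19057 symbols measured (53.7%). RPKM are reads per kilobase of transcript, scaled to the mapped reads of the library. All mice were ICR, an outbred strain, and 10 weeks old, and the study used males. The control group (Con) received a regular diet and saline. The A10-FMT group, labelled STZ+AOS10mg/kg-FMT, received streptozotocin (STZ), a toxin taken up by insulin-producing beta cells. This group was then dosed by mouth with intestinal microbiota whose donors had received AOS by gavage (10 mg/kg). By the paper's methods, the microbiota dosing ended some weeks before tissue was collected. Con-FMT mice (STZ and microbiota of control donors) and STZ mice (STZ alone) entered the same model and are cited beside A10-FMT where a direct contrast was possible. Each group held 3 mice with 1 liver library each. The inoculum was small intestinal content pooled over donors, so that the 3 A10-FMT mice shared 1 donor pool. Con mice received neither STZ nor microbiota, and the effects of the toxin and of the transplant cannot be told apart in A10-FMT against Con.

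In a liver that receives little insulin, glucagon and glucocorticoid signals prevail. Gluconeogenesis, amino acid breakdown and fatty acid oxidation are then normally raised, and lipogenesis, which insulin drives, is low. The liver also follows a daily clock and, in male mice, the pulsatile growth hormone pattern that sustains male-biased genes such as the major urinary proteins.

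In values as deposited, 2014 of 10229 genes (19.7%) were called at an adjusted p under 0.05 in limma, 1741 higher (17.0%) and 273 lower (2.67%) in A10-FMT. Among them, 244 were higher and 97 lower by at least 1 on the log2(RPKM + 1) scale, on which every log2 change below is given and which understates changes of genes near or under 1 RPKM. The median over all genes was 0.16 higher in A10-FMT, so a typical gene already sat above Con by that amount. After median-ratio scaling, which brings this median to -0.01, 1172 genes were called (11.5%), 635 higher (6.21%) and 537 lower (5.25%). The share of calls that were higher was thus 86.4% in values as deposited and 54.2% after scaling, and list counts are given under both. Each list count below stands against the shares of all genes, 17.0% higher and 2.67% lower as deposited, and 6.21% and 5.25% after scaling. All A10-FMT mice lay above all Con mice in 42.2% of all genes and below them in 7.32%. The sum of RPKM was 749557 to 806937 in Con and 675600 to 712798 in A10-FMT, and the 50 highest genes held 54.5% to 61.9% and 42.5% to 46.0% of it. Reads per library are not part of RPKM, so no counting interval could be given. The most frequent ratio to Con replicate 1 among genes of 0.15 to 1 RPKM was 1.01 to 1.07 in the other 5 libraries. RPKM are already divided by mapped reads, so ratios near 1 can arise at unequal depth, and similar depth was not shown.

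Con replicate 3 stood apart in a way that bears on every p-value below. In the 242 genes with a group mean of 1 RPKM or more that differed more than 2-fold (after adding 0.1 RPKM) between Con replicates 1 and 2, replicate 3 lay between the other two in 94.6%, at a median position of 0.531 of the way from replicate 2 to replicate 1 (quartiles 0.451 and 0.61). The same share in the other 11 libraries of the 4 groups was 16.9% to 81.4%. Whether Con replicate 3 is a sample independent of the other two was not tested. Without it 802 of 10229 genes were called (7.84%), 688 higher and 114 lower. List counts given without Con replicate 3 stand against these counts of all genes. Leaving out another mouse gave 641 genes (Con replicate 1), 1530 (Con replicate 2), 890 (A10-FMT replicate 1), 1158 (A10-FMT replicate 2) and 659 (A10-FMT replicate 3). Of the 122 genes named by rule and called, 89 were also called without Con replicate 3, 109 after scaling, and 73 whichever 1 of the 6 mice was left out. Where leaving out a mouse (written Con 3 and so on) or scaling ended a call, the adjusted p without it or after scaling follows the first one, as the highest where several mice ended it. The filter let 93 genes through that no Con library had at 1 RPKM, 54 of them called higher, and 42 that no A10-FMT library had, 32 of them called lower. Such genes had to differ, so their adjusted p is a description and no support. Those described below are Dbp, Ciart, Per3, Cyp4a14, Cyp2b13, Vldlr, Phlda3 and Lepr (higher) and Npas2, Nat8f7, Mthfd2, E2f8, Sox9 and Cd4 (lower). With 1 RPKM required in all 6 libraries 1644 of 9494 genes were called higher and 212 lower.

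All 13 hepatocyte markers were measured, and their summed level was 60009 to 74952 RPKM in Con and 61808 to 70493 RPKM in A10-FMT. Singly, 4 were called higher and 0 lower (3 and 0 after scaling, 2 and 0 without Con replicate 3). All A10-FMT mice lay above all Con mice in 5 of the 13 and below them in 5, against 42.2% and 7.32% of all genes. None of 16 Kupffer cell and macrophage, 15 sinusoidal endothelial or 14 stellate cell and fibroblast markers was called in either direction. In bulk liver, fewer cells of a type and less RNA per cell cannot be told apart. Of 13 pancreas markers only Cela1 passed the filter, and 4 were at 0 in all 6 libraries.

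Core circadian clock genes moved in both directions. Of 20 clock genes measured, 10 were higher and 4 lower in A10-FMT (8 and 5 after median-ratio scaling, 7 and 4 without Con replicate 3), with a median log2 change of 0.66. Those that rose included Dbp, Tef, Nr1d1, Nr1d2, Ciart, Per1 and Per3, and the 4 that fell were Arntl, Npas2, Cry1 and Nfil3. In the clock, the CLOCK and BMAL1 proteins drive their own repressors and a set of output genes, and the REV-ERB receptors in turn repress Arntl. Clock factors bind short promoter motifs, and 6 called clock genes whose promoter holds one are printed to show them, 250 bases upstream of the start in RefSeq (GRCm38.p6), 5′ to 3′ along the gene. Capitals mark the E-box CACGTG bound by BMAL1 partners, the D-box TTATGTAA or TTATGCAA bound by DBP, TEF, HLF and NFIL3, and the ROR element TAGGTCA bound by ROR and REV-ERB receptors (both strands searched, no match overlapping another). In Nfil3 the ROR element reads on the opposite strand, as TGACCTA.

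Ciart: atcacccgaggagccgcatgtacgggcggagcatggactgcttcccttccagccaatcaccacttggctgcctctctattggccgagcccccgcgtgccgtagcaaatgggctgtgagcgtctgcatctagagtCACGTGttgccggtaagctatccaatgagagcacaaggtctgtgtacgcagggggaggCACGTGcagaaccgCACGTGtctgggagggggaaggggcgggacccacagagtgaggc
Tef: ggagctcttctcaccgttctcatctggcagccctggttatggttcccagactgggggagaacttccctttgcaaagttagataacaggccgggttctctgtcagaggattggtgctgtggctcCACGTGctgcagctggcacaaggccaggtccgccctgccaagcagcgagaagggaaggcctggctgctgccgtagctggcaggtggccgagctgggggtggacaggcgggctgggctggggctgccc
Per1: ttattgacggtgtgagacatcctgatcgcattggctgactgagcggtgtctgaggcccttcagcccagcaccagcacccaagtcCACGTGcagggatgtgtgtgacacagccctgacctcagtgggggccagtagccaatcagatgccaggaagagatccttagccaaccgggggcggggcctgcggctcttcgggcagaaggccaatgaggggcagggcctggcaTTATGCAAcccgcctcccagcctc
Cry1: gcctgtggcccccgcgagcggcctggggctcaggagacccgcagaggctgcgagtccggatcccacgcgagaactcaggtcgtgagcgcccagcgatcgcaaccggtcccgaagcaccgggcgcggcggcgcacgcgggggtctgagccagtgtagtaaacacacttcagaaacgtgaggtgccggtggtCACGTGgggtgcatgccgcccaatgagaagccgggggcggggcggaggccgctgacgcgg
Per3: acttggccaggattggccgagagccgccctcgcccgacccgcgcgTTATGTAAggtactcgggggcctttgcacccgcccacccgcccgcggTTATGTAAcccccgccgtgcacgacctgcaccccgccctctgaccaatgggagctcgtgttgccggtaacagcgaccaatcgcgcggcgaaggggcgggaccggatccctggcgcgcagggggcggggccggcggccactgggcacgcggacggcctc
Nfil3: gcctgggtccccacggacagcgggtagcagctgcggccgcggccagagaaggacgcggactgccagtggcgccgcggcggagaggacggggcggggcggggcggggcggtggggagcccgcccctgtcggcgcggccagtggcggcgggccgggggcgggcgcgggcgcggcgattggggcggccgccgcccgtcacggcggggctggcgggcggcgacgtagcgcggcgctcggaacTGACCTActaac

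These windows are chr3:95882229-95882478, minus strand (Ciart), chr15:81802423-81802672, plus strand (Tef), chr11:69098699-69098948, plus strand (Per1), chr10:85185055-85185304, minus strand (Cry1), chr4:151044666-151044915, minus strand (Per3) and chr13:52981040-52981289, minus strand (Nfil3). Of the 20 clock genes, 17 matched the RefSeq table, with 23 windows. An E-box stood in 5 of these 23 windows (4 genes), against 6.02% of all 32851 promoter windows of that length, a D-box in 2 (1.5% of all windows) and a ROR element in 1 (2.23%). The 3 E-boxes of Ciart began 116, 58 and 44 bases before the start, and the 2 D-boxes of Per3 began 205 and 158 bases before it. The windows printed for Tef, Per1 and Cry1 held 1 E-box each, a further Tef window held another, and that of Per1 also a D-box 24 bases before its start. The windows of Dbp, Nr1d1, Nr1d2, Arntl and Npas2 held none of these letters. A match is a description of the window and not a site of binding.

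Dbp, a clock-output transcription factor that binds D-boxes, was at 0.66, 0.58 and 0.68 RPKM in Con and 62.3, 78.7 and 80.3 in A10-FMT (chr7:45705088-45710203, plus strand). No other change among the clock genes was as large (log2 change 5.50, SE 0.64, adjusted p = 8.04e-04). Nr1d1 and Nr1d2, which encode the REV-ERB repressors of Arntl, also separated fully between the groups. Nr1d1 was at 1.22, 3.68 and 2.72 RPKM in Con and 51.3, 66.5 and 24.4 in A10-FMT (log2 change 3.73, SE 0.34, adjusted p = 1.82e-04). For Nr1d2 the values were 2.05, 3.03 and 2.49 RPKM in Con and 18.8, 21.6 and 23.3 in A10-FMT (log2 change 2.66, SE 0.24, adjusted p = 1.47e-04). Tef, a D-box activator related to Dbp, was at 5.14, 8.39 and 6.6 RPKM in Con and 39.2, 45.2 and 58.9 in A10-FMT (log2 change 2.66, SE 0.37, adjusted p = 0.00177). Ciart, a repressor of CLOCK and BMAL1 and the gene with 3 E-boxes above, was at 0.35, 0.36 and 0.45 RPKM in Con and 6.31, 11.1 and 16.6 in A10-FMT (adjusted p = 0.0115, 0.0519 without A10-FMT 3). Per3, with 2 D-boxes, was at 0.18, 0.81 and 0.58 RPKM in Con and 4.2, 6.34 and 6.58 in A10-FMT (adjusted p = 0.00862). The related Per1 was at 0.44, 2.34 and 1.32 RPKM in Con and 6.15, 4.05 and 8.95 in A10-FMT (adjusted p = 0.0192, up to 0.0852 without Con 1, Con 3, A10-FMT 1 or A10-FMT 3). In each of these 7 genes the lowest A10-FMT mouse was above the highest Con mouse, as in 42.2% of all genes. Dbp, Ciart and Per3 were under 1 RPKM in all Con mice, passed the filter through A10-FMT alone and had to differ.

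The 4 genes that fell were lower in every A10-FMT mouse than in any Con mouse, as in 7.32% of all genes. Arntl, which encodes BMAL1, was at 10.1, 12.9 and 12.2 RPKM in Con and 2.04, 1.42 and 0.83 in A10-FMT (log2 change -2.41, SE 0.39, adjusted p = 0.0035). Npas2, a partner of BMAL1 that can stand in for CLOCK, was at 2.9, 3.48 and 2.95 RPKM in Con and 0.0800, 0.0700 and 0.0300 in A10-FMT (log2 change -1.95, SE 0.28, adjusted p = 0.00186), so it was above 1 RPKM in all Con mice and under 0.1 RPKM in all A10-FMT mice. Npas2 passed the filter through Con alone and had to differ. Cry1, a repressor of CLOCK and BMAL1 whose expression peaks late in the cycle, was at 8.45, 14 and 10.5 RPKM in Con and 2.96, 3.1 and 3.06 in A10-FMT (log2 change -1.54, SE 0.23, adjusted p = 0.00228). Nfil3, a repressor at D-boxes, was at 23.7, 21.2 and 23.1 RPKM in Con and 11.6, 8.4 and 7.49 in A10-FMT (adjusted p = 0.00481). Clock itself, at 4.94, 6.0 and 5.68 RPKM in Con and 3.89, 3.24 and 2.95 RPKM in A10-FMT, was not called (adjusted p = 0.143). Nor was the repressor gene Per2, with 1.68, 6.92 and 4.27 RPKM in Con and 5.11, 5.55 and 10.3 RPKM in A10-FMT, whose mice overlapped. The hour of tissue collection is not given in the sources used here, and its part in these values was not tested.

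**Figure D1:**
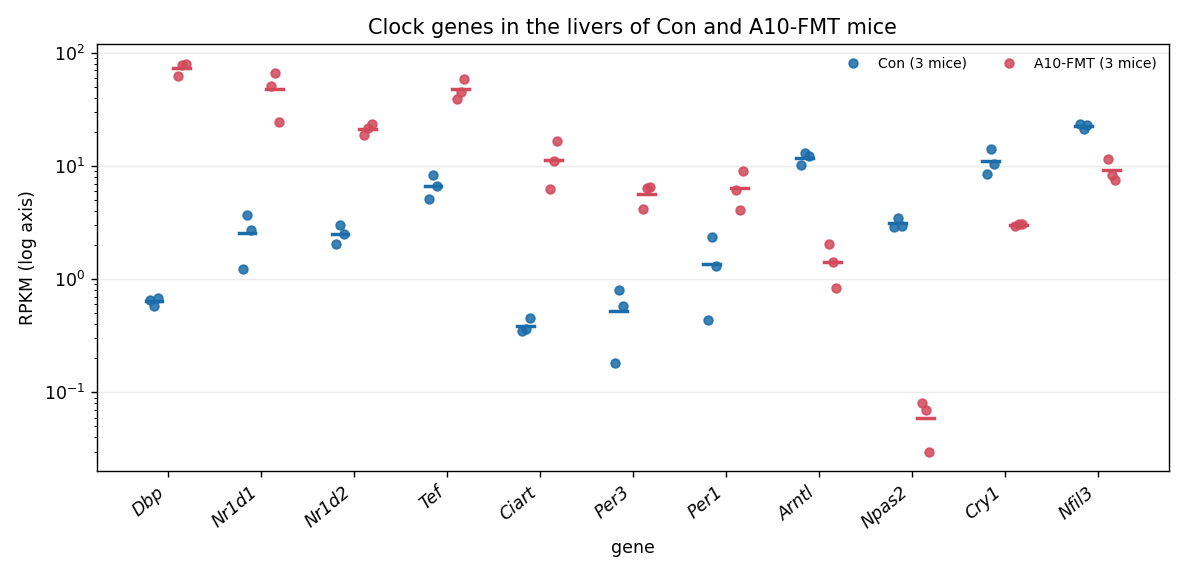
Level of 11 clock genes in RPKM (log axis) in each of the 3 Con and 3 A10-FMT mice, with bars at the group means. The 7 genes on the left lie higher in every A10-FMT mouse than in any Con mouse, and Arntl, Npas2, Cry1 and Nfil3 lie lower.

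Genes of gluconeogenesis and fasting signals were higher as a group. Of 22 measured, 16 were called higher and 0 lower (13 after median-ratio scaling, 10 without Con replicate 3), against 17.0% of all genes higher, and the median log2 change was 0.88 against 0.16 for all genes. Pck1, the cytosolic enzyme that turns oxaloacetate into phosphoenolpyruvate, was at 287, 342 and 302 RPKM in Con and 1593, 1354 and 1743 in A10-FMT (chr2:173153048-173159273, plus strand). Every A10-FMT mouse was thus far above the Con range (log2 change 2.32, SE 0.29, adjusted p = 0.00101). Got1, the cytosolic aspartate aminotransferase that supplies oxaloacetate, was at 33.6, 51.8 and 44.8 RPKM in Con and 213, 194 and 241 in A10-FMT (log2 change 2.31, SE 0.26, adjusted p = 7.35e-04). Sds, serine dehydratase, which yields pyruvate from serine, was at 74.3, 86.5 and 83.8 RPKM in Con and 332, 379 and 445 in A10-FMT (log2 change 2.22, SE 0.24, adjusted p = 5.67e-04). Gpt, alanine aminotransferase, was at 76.5, 112 and 99.97 RPKM in Con and 168, 179 and 182 in A10-FMT (log2 change 0.88, SE 0.18, adjusted p = 0.00913).

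The final enzyme of glucose release did not follow this pattern. G6pc, glucose-6-phosphatase, was at 156, 265 and 208 RPKM in Con and 321, 189 and 267 in A10-FMT, with overlapping mice (log2 change 0.30, SE 0.29, adjusted p = 0.481). Igfbp1, an insulin-repressed secreted protein, was at 18.1, 24 and 21.8 RPKM in Con and 85, 35.8 and 93.6 in A10-FMT. Here the groups did not overlap, yet the gene missed the threshold (log2 change 1.59, SE 0.54, adjusted p = 0.0592), and A10-FMT replicate 2 was nearest to Con.

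Amino acid breakdown gave the most calls of any metabolic list by count, with 63.8% of its measured genes called. By share it stood below gluconeogenesis (72.7%) and mitochondrial fatty acid oxidation (70.8%). Of 47 genes of the urea cycle, ammonia handling and amino acid catabolism, 30 were higher and 0 lower (24 after median-ratio scaling, 22 without Con replicate 3). This stood against 17.0% of all genes higher (6.21% after scaling), and the median log2 change was 0.75. Slc7a2, a transporter of arginine and other cationic amino acids, had the smallest adjusted p of all genes and was at 11.7, 14.7 and 14.1 RPKM in Con and 100.5, 100.2 and 129.5 in A10-FMT (chr8:40862396-40922308, plus strand). The lowest A10-FMT mouse was above the highest Con mouse several times over (log2 change 2.94, SE 0.18, adjusted p = 3.73e-05). Oat, ornithine aminotransferase, which feeds ornithine carbon into glutamate, was at 72.8, 81.6 and 79.9 RPKM in Con and 971, 893 and 789 in A10-FMT (chr7:132557478-132576398, minus strand). Its spread within each group was small against the difference (log2 change 3.48, SE 0.32, adjusted p = 1.82e-04). Cps1, which fixes ammonia at the entry of the urea cycle, was at 298, 449 and 375 RPKM in Con and 863, 838 and 939.9 in A10-FMT (log2 change 1.25, SE 0.17, adjusted p = 0.00172). Tat, the tyrosine aminotransferase induced by glucocorticoids, was at 334, 581 and 455 RPKM in Con and 1043, 787 and 1033 in A10-FMT (adjusted p = 0.0168, up to 0.073 without Con 1, Con 3, A10-FMT 1 or A10-FMT 3).

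These enzymes belong to different zones of the liver lobule. Of 13 periportal markers 9 were higher and 1 lower (7 and 1 after scaling and likewise without Con replicate 3), and of 14 pericentral markers 5 were higher and 0 lower (4 and 0 after scaling and likewise without Con replicate 3). The periportal phospholyase gene Etnppl was at 7.44, 22.9 and 15.2 RPKM in Con and 153, 135 and 187 in A10-FMT (log2 change 3.41, SE 0.42, adjusted p = 0.00101). Cdh1, periportal E-cadherin, was the one lower at 19.1, 16.3 and 17.1 RPKM in Con and 12.9, 9.98 and 9.91 in A10-FMT (log2 change -0.64, SE 0.12, adjusted p = 0.00600). Among pericentral genes, the ethanol-inducible Cyp2e1 was at 1755, 2572 and 2221 RPKM in Con and 3673, 4931 and 5832 in A10-FMT (log2 change 1.13, SE 0.24, adjusted p = 0.0119, up to 0.0592 without Con 1 or A10-FMT 3). Aldh1b1, a mitochondrial aldehyde dehydrogenase, was at 25.3, 23.1 and 26 RPKM in Con and 82.4, 75 and 80.1 in A10-FMT (log2 change 1.64, SE 0.19, adjusted p = 8.84e-04). Markers of both zones therefore included genes that rose, and Oat is itself in the pericentral list.

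Sulfur amino acid genes were divided. Of 26 genes of taurine, methionine and one-carbon metabolism, 13 were higher and 3 lower (8 and 3 after scaling, 8 and 2 without Con replicate 3). Mat1a, which makes S-adenosylmethionine, was at 395, 434 and 439.6 RPKM in Con and 1956, 1546 and 2021 in A10-FMT (log2 change 2.11, SE 0.28, adjusted p = 0.00145). Gnmt, which consumes it, was at 1133, 1101 and 1199 RPKM in Con and 2872, 2602 and 3412 in A10-FMT (log2 change 1.36, SE 0.24, adjusted p = 0.00507). Cbs, the first enzyme of transsulfuration, was at 111, 129.7 and 127 RPKM in Con and 255, 202 and 196 in A10-FMT (log2 change 0.82, SE 0.13, adjusted p = 0.0035). Mthfd2, a mitochondrial folate enzyme, was at 1.53, 1.03 and 1.24 RPKM in Con and 0.59, 0.44 and 0.36 in A10-FMT (log2 change -0.63, SE 0.14, adjusted p = 0.0125, up to 0.0585 without Con 1 or A10-FMT 3). Csad, the decarboxylase of taurine synthesis, was at 129, 148 and 140.2 RPKM in Con and 57.9, 61.1 and 48.9 in A10-FMT (log2 change -1.30, SE 0.32, adjusted p = 0.0191, up to 0.0756 without Con 1, Con 3, A10-FMT 1 or A10-FMT 3).

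Of 26 glucose uptake, glycolysis and fructose genes, 5 were higher and 1 lower, near the 17.0% and 2.67% of all genes. After scaling 5 were higher and 4 lower, against 6.21% and 5.25% of all genes, and without Con replicate 3 the counts were 2 and 0. Slc2a2, the GLUT2 transporter, was at 41, 71.8 and 53.8 RPKM in Con and 116, 122 and 108 in A10-FMT (log2 change 1.08, SE 0.24, adjusted p = 0.0129, 0.0585 without Con 1). Pdk2, a kinase that restrains pyruvate dehydrogenase, was at 34.3, 38.8 and 36.7 RPKM in Con and 69.1, 61 and 84.5 in A10-FMT (log2 change 0.94, SE 0.23, adjusted p = 0.0184, up to 0.0803 without Con 1, Con 3, A10-FMT 1 or A10-FMT 3).

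Of 15 glycogen genes 4 were higher and 1 lower (2 and 1 after scaling, 1 and 1 without Con replicate 3). Ugp2, which makes UDP-glucose, was at 56.1, 72.7 and 62.4 RPKM in Con and 181, 183 and 173 in A10-FMT (log2 change 1.48, SE 0.17, adjusted p = 7.61e-04). Gys2, liver glycogen synthase, was at 26.3, 41 and 33.7 RPKM in Con and 73.7, 83.1 and 109 in A10-FMT (log2 change 1.37, SE 0.34, adjusted p = 0.0198, up to 0.0842 without Con 1, Con 3 or A10-FMT 3). The starch-binding protein gene Stbd1 was at 17.3, 21.3 and 20.1 RPKM in Con and 27.7, 33.5 and 30.8 in A10-FMT (log2 change 0.62, SE 0.15, adjusted p = 0.019, up to 0.0817 without Con 1, Con 3, A10-FMT 2 or A10-FMT 3, 0.0942 after scaling). Ppp1r3b, the subunit that directs protein phosphatase 1 to glycogen, went the other way, at 36.7, 76.6 and 55.6 RPKM in Con and 19.5, 19.2 and 26.3 in A10-FMT (log2 change -1.29, SE 0.23, adjusted p = 0.00558).

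**Figure D2:**
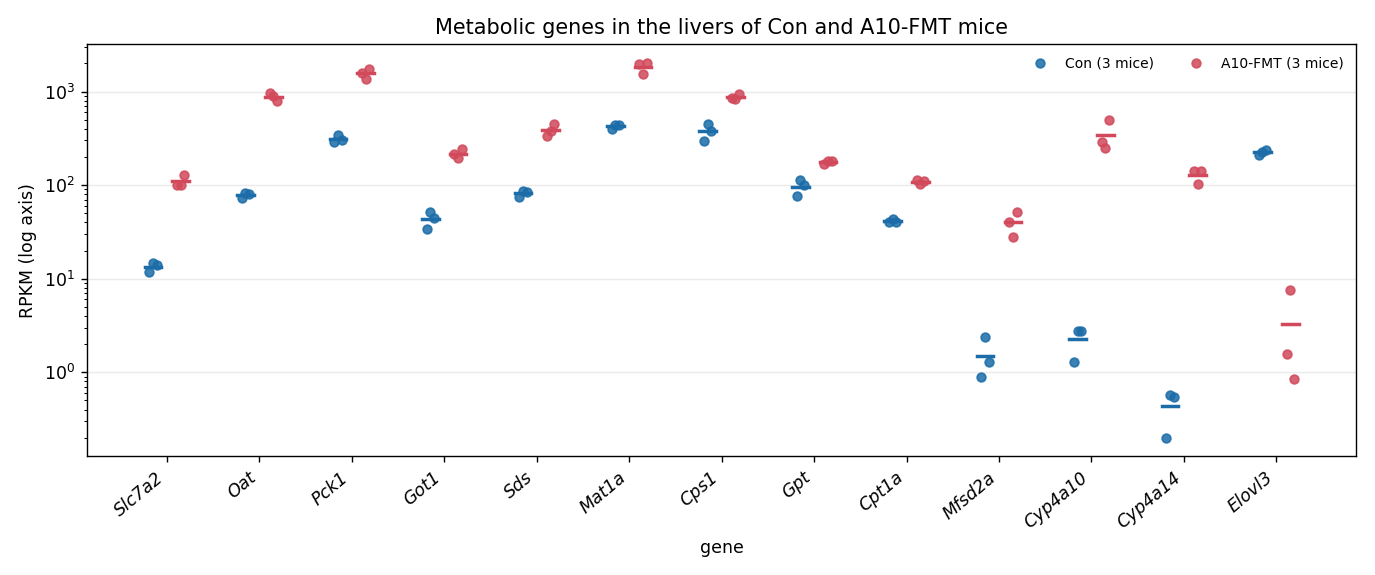
Level of 13 metabolic genes in RPKM (log axis) in each of the 3 Con and 3 A10-FMT mice, with bars at the group means. Slc7a2 to Cyp4a14 lie above Con in every A10-FMT mouse, with the Cyp4a genes apart by the most, and Elovl3 lies below.

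Fatty acid oxidation genes of mitochondria, microsomes and peroxisomes were called higher in A10-FMT and none was called lower. Of 24 mitochondrial oxidation and ketogenesis genes, 17 were higher and 0 lower (11 after scaling). Without Con replicate 3 this count was 5. Cpt1a, which admits long-chain fatty acids to the mitochondrion, was at 39.9, 42.9 and 40.5 RPKM in Con and 114, 103 and 109.9 in A10-FMT (log2 change 1.39, SE 0.23, adjusted p = 0.00415). The enoyl-CoA isomerase Eci1 was at 52.7, 76 and 60.5 RPKM in Con and 109, 109.9 and 127 in A10-FMT (log2 change 0.87, SE 0.19, adjusted p = 0.0119, up to 0.0553 without Con 1 or A10-FMT 3). Of 29 microsomal and peroxisomal genes, 15 were higher and 0 lower (9 after scaling, 8 without Con replicate 3).

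The omega-hydroxylases Cyp4a10 and Cyp4a14, which are targets of the fatty acid receptor PPARα, had the highest log2 changes of all genes. Cyp4a10 was at 1.29, 2.76 and 2.77 RPKM in Con and 286, 249.6 and 492 in A10-FMT (chr4:115518264-115533649, plus strand). For its neighbour Cyp4a14 the values were 0.20, 0.57 and 0.55 RPKM in Con and 143, 102 and 141 in A10-FMT (chr4:115486200-115496142, minus strand). Both were near the bottom of the measured range in Con and among well-expressed genes in every A10-FMT mouse, with log2 changes of 6.69 (SE 0.53, adjusted p = 7.69e-05) and 6.49 (SE 0.67, adjusted p = 4.15e-04). These genes resemble each other in sequence, and reads may have been divided between them. Acot12, an acetyl-CoA hydrolase, was at 18.9, 26.7 and 24.1 RPKM in Con and 49.1, 50.8 and 57.9 in A10-FMT (log2 change 1.15, SE 0.14, adjusted p = 9.83e-04).

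Among 28 genes of fatty acid uptake, droplets and lipolysis, 7 were higher and 0 lower (5 after scaling, 4 without Con replicate 3), against 17.0% of all genes higher (6.21% after scaling). Mfsd2a, a transporter of lysophospholipids that carry docosahexaenoic acid and a gene induced by fasting in liver, was at 0.89, 2.36 and 1.28 RPKM in Con and 40.6, 27.8 and 52.2 in A10-FMT (chr4:122946850-122961188, minus strand). The groups were far apart (log2 change 4.03, SE 0.29, adjusted p = 5.89e-05). Cd36, a fatty acid translocase, was at 2.45, 2.22 and 1.85 RPKM in Con and 6.65, 10.2 and 7.21 in A10-FMT (log2 change 1.49, SE 0.26, adjusted p = 0.00526). The lipoprotein receptor Vldlr was at 0.35, 0.79 and 0.69 RPKM in Con and 4.45, 2.84 and 2.68 in A10-FMT (log2 change 1.41, SE 0.20, adjusted p = 0.00176). Of 24 apolipoprotein and lipoprotein handling genes 6 were higher and 0 lower (3 after scaling, 2 without Con replicate 3), near those shares of all genes. Apoa4 was at 218, 183 and 214 RPKM in Con and 563, 453 and 408 in A10-FMT (log2 change 1.20, SE 0.27, adjusted p = 0.0129, 0.0528 without A10-FMT 1). Apoa5, which promotes triglyceride clearance, was at 366, 478 and 436 RPKM in Con and 849, 804 and 999 in A10-FMT (log2 change 1.05, SE 0.25, adjusted p = 0.0171, up to 0.0728 without Con 1, Con 3 or A10-FMT 3). Endothelial lipase Lipg was at 0.91, 1.84 and 1.54 RPKM in Con and 3.77, 2.57 and 4.35 in A10-FMT (log2 change 0.91, SE 0.18, adjusted p = 0.0082).

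Of 23 de novo lipogenesis genes 4 were higher, near the 17.0% of all genes, and 5 were lower, above the 2.67% of all genes. The counts were 3 and 4 after scaling, against 6.21% and 5.25% of all genes, and 3 and 3 without Con replicate 3. The median log2 change was -0.02. This list is wider than fatty acid synthesis itself, since it also holds Fabp5, Lpin1 and Lpin2, described below. Elovl3, an elongase of very long fatty acids that is high in male liver, was at 209, 228 and 239 RPKM in Con and 1.57, 7.53 and 0.84 in A10-FMT (chr19:46131897-46135694, plus strand). It was almost lost in 2 A10-FMT mice and low in the remaining one (log2 change -6.04, SE 0.93, adjusted p = 0.00281). Fabp5, a fatty acid binding protein, was at 44.7, 61.9 and 58.2 RPKM in Con and 12.7, 7.13 and 7.9 in A10-FMT (log2 change -2.47, SE 0.37, adjusted p = 0.00244). Acacb, whose product malonyl-CoA blocks CPT1, was at 9.94, 16.8 and 13.1 RPKM in Con and 5.57, 6.7 and 5.58 in A10-FMT (log2 change -1.01, SE 0.15, adjusted p = 0.00278). Elovl6, which lengthens palmitate, instead rose, at 7.84, 10.6 and 9.08 RPKM in Con and 16.3, 18.9 and 22.5 in A10-FMT (log2 change 0.99, SE 0.15, adjusted p = 0.00298). The phosphatidate phosphatase genes Lpin1 and Lpin2, which fasting is known to induce, rose as well. Lpin1 was at 4.2, 5.94 and 5.22 RPKM in Con and 13.1, 20.2 and 27.1 in A10-FMT (log2 change 1.74, SE 0.35, adjusted p = 0.0096). The level of Lpin2 was 10.2, 13.7 and 11.8 RPKM in Con and 27.6, 31.3 and 45.8 in A10-FMT (log2 change 1.45, SE 0.28, adjusted p = 0.00765).

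Of 25 cholesterol synthesis and SREBP2 genes, 3 were higher and 0 lower (1 both after scaling and without Con replicate 3), below the 17.0% of all genes. Idi1, an isomerase of the isoprenoid steps, was at 37, 43.2 and 42.6 RPKM in Con and 105, 154 and 105 in A10-FMT (log2 change 1.53, SE 0.35, adjusted p = 0.0147, up to 0.0600 without Con 1 or A10-FMT 2). Stard4, a carrier of sterols, was at 19.7, 27.9 and 23 RPKM in Con and 35.4, 39.95 and 44.9 in A10-FMT (log2 change 0.75, SE 0.22, adjusted p = 0.0346, up to 0.131 without Con 1, Con 3, A10-FMT 1, A10-FMT 2 or A10-FMT 3, 0.0797 after scaling).

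Of 30 genes of bile acid synthesis and transport, 14 were higher and 1 lower (10 and 1 both after scaling and without Con replicate 3). The 3 with the smallest adjusted p were transporters. Slco1a4, an uptake transporter of organic anions, was at 2.78, 8.43 and 5.55 RPKM in Con and 57.2, 62.4 and 59.1 in A10-FMT (log2 change 3.30, SE 0.44, adjusted p = 0.00145). Abcc3, which exports conjugates to the blood, was at 20.4, 42.6 and 31.9 RPKM in Con and 96.2, 88.6 and 95.1 in A10-FMT (log2 change 1.59, SE 0.22, adjusted p = 0.00172). Abcc2, which exports them to bile, was at 20.01, 28.8 and 24 RPKM in Con and 50.4, 49.6 and 58.7 in A10-FMT (log2 change 1.10, SE 0.15, adjusted p = 0.00169). Cyp2c70, which makes the muricholic acids of mice, was the one that fell, at 618, 590.5 and 596 RPKM in Con and 239, 244 and 197 in A10-FMT (log2 change -1.41, SE 0.23, adjusted p = 0.00346), with the highest A10-FMT mouse far under the lowest Con mouse.

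Of 40 xenobiotic oxidation genes, 23 were higher and 0 lower (19 after scaling, 15 without Con replicate 3), with a median log2 change of 0.93, and 17 were not called. Cyp2b10, the classical target of the receptor CAR, was at 0.62, 1.42 and 1.55 RPKM in Con and 18.9, 27.9 and 16.8 in A10-FMT (log2 change 3.34, SE 0.30, adjusted p = 1.47e-04). Cyp2c37, Cyp2c38 and Cyp2c39, neighbours in the Cyp2c cluster of chromosome 19, rose too. Cyp2c37 was at 10.3, 30.6 and 19.9 RPKM in Con and 362, 267 and 329 in A10-FMT (log2 change 4.02, SE 0.68, adjusted p = 0.00415). Cyp2c38 was at 4.35, 15.7 and 9.09 RPKM in Con and 97, 82.7 and 111 in A10-FMT (log2 change 3.33, SE 0.39, adjusted p = 8.71e-04). Cyp2c39 was at 16.6, 33.9 and 24.7 RPKM in Con and 324, 200.1 and 288 in A10-FMT (log2 change 3.41, SE 0.42, adjusted p = 0.00101). All 3 A10-FMT mice were well above Con in each. Cyp2a5, a nicotine and coumarin hydroxylase, was at 42.4, 152 and 100.3 RPKM in Con and 880.0, 1414 and 2529 in A10-FMT (log2 change 4.06, SE 0.65, adjusted p = 0.00321). In all of these the groups were separate, though paralogous Cyp2 genes can share reads.

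Among 46 conjugation and glutathione transfer genes, 23 were higher, 3 lower (16 and 4 after scaling, 16 and 1 without Con replicate 3) and 20 not called. Gsta2, a glutathione transferase, was at 16.2, 45.3 and 29.2 RPKM in Con and 184, 254 and 287 in A10-FMT (log2 change 3.05, SE 0.33, adjusted p = 5.67e-04). Ephx1, microsomal epoxide hydrolase, was at 189, 254 and 226 RPKM in Con and 508, 537 and 538 in A10-FMT (log2 change 1.25, SE 0.16, adjusted p = 0.00103). The sulfotransferase Sult1d1 was at 26, 15.6 and 19.5 RPKM in Con and 81.5, 77.2 and 88.7 in A10-FMT (log2 change 1.99, SE 0.31, adjusted p = 0.00284). Those that fell were the glutathione transferase Gstp1, the acetyltransferase Nat8 and the glucuronosyltransferase Ugt2b38. Gstp1 was at 7599.7, 7303 and 7745 RPKM in Con and 2439.9, 4730.0 and 3649 in A10-FMT (log2 change -1.12, SE 0.29, adjusted p = 0.0249, up to 0.0933 without Con 1, Con 3, A10-FMT 1 or A10-FMT 3). Nat8 was at 17.8, 25.5 and 22.9 RPKM in Con and 3.36, 10.1 and 4.26 in A10-FMT (log2 change -1.85, SE 0.52, adjusted p = 0.0306, up to 0.105 without Con 1, Con 2, Con 3, A10-FMT 1 or A10-FMT 3). Ugt2b38 was at 8.93, 7.15 and 7.96 RPKM in Con and 1.2, 2.51 and 0.64 in A10-FMT (log2 change -1.95, SE 0.41, adjusted p = 0.0113, 0.0519 without A10-FMT 3). Gstp1 and Ugt2b38 are also in the male-biased list. Nat8f7, a relative of Nat8, was under 1 RPKM in all A10-FMT mice, at 8.84, 18.5 and 13 RPKM in Con and 0.61, 0.36 and 0.13 in A10-FMT (chr6:85706727-85713205, minus strand, log2 change -3.36, SE 0.24, adjusted p = 5.89e-05).

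**Figure D3:**
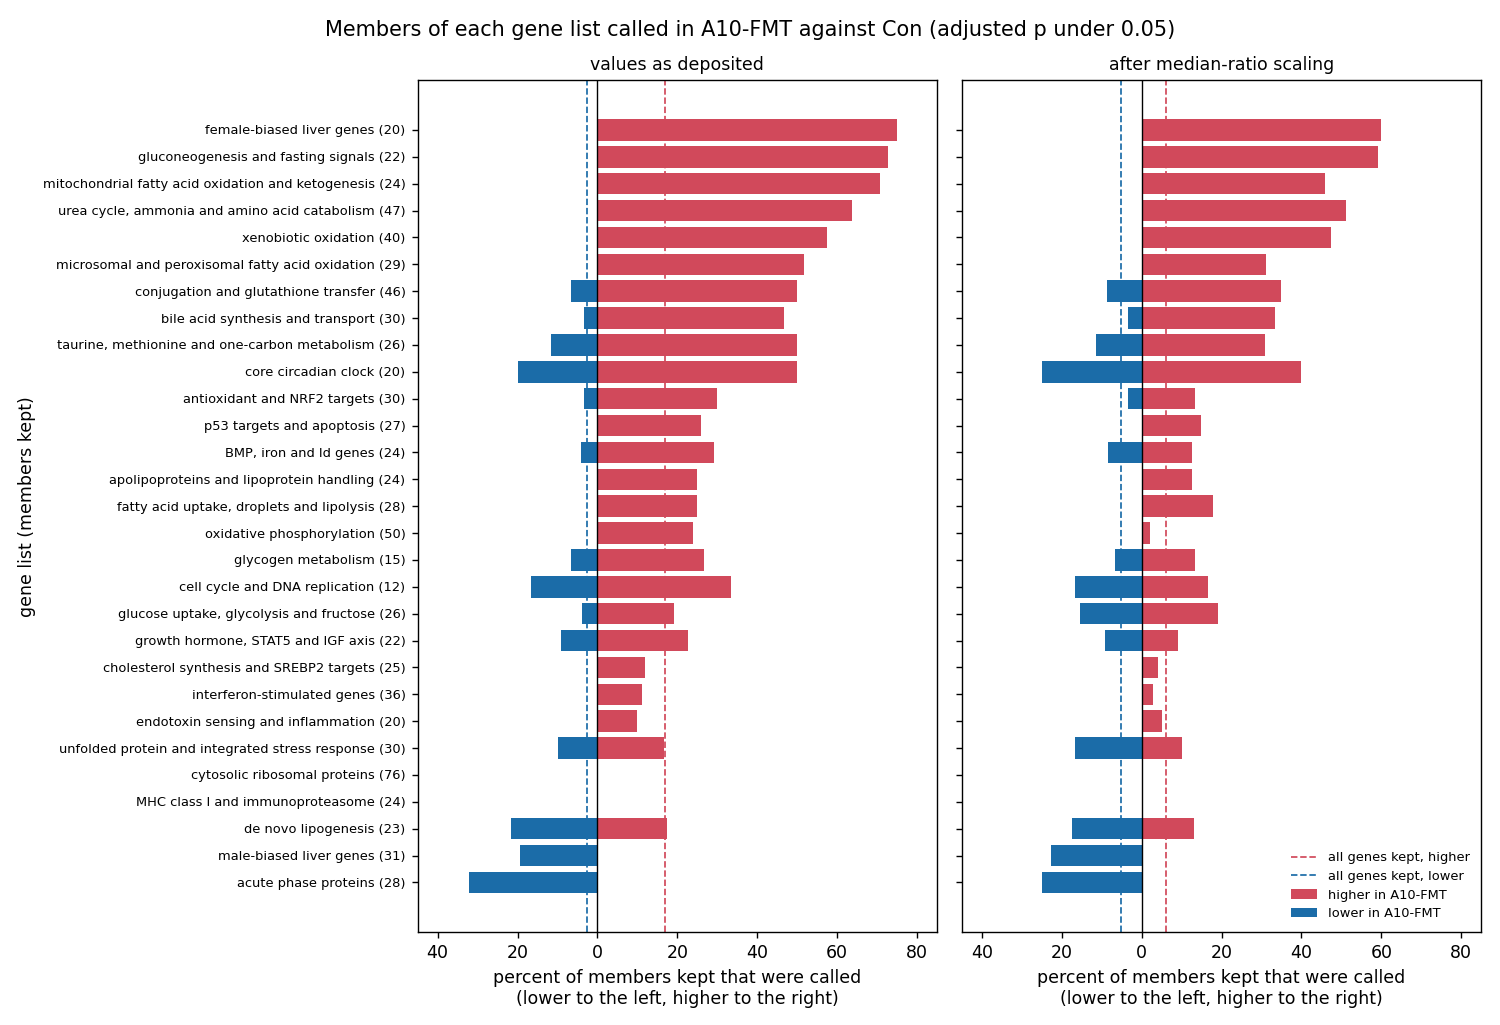
Percent of measured members of each gene list called higher (right, red) or lower (left, blue) in A10-FMT against Con, in values as deposited (left panel) and after median-ratio scaling (right panel). Dashed lines mark the same percent over all 10229 genes, and numbers in brackets are members measured. The gluconeogenesis, amino acid, fatty acid oxidation, xenobiotic oxidation and female-biased lists lie above the line on the higher side under both scalings, and acute phase and male-biased genes have calls on the lower side alone.

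Genes with a sex bias in mouse liver separated by direction. Of 20 measured female-biased genes (34 listed), 15 were higher and 0 lower in A10-FMT (12 after scaling, 9 without Con replicate 3), with a median log2 change of 1.76. Cyp4a14 and Cyp2b10, described above in other lists, are counted among the 15. Cyp2b9, a female-predominant steroid hydroxylase, was at 0.92, 9.87 and 4.18 RPKM in Con and 199, 132 and 120.4 in A10-FMT (log2 change 4.96, SE 0.73, adjusted p = 0.00243). More uneven were Cyp2b13 and Cyp2a4. Cyp2b13 was at 0.15, 0.61 and 0.12 RPKM in Con and 98.9, 7.63 and 34.5 in A10-FMT (log2 change 4.62, SE 1.04, adjusted p = 0.0134, up to 0.0544 without Con 1, A10-FMT 1 or A10-FMT 3). Cyp2a4 was at 0.38, 5.21 and 2.99 RPKM in Con and 130.0, 37.4 and 53.9 in A10-FMT (log2 change 4.33, SE 0.84, adjusted p = 0.0082). A10-FMT replicate 1 had the highest level and replicate 2 the lowest in these 2 genes. The filter kept a female-biased gene of male mice mostly where A10-FMT raised it, so the count over the 20 is a description of those that passed.

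Of 31 male-biased genes, 0 were higher and 6 lower (7 lower after scaling, 5 without Con replicate 3), with a median log2 change of -1.18. In 26 of the 31 all A10-FMT mice lay below all Con mice, against 7.32% of all genes. With only A10-FMT and Con in the fit 25 were called lower, and without STZ replicate 3 (a fit added after seeing the data) 16. Over all 10229 genes these fits called 503 and 390 lower. STZ replicate 3 stood apart in these genes, with 45.8, 34.4 and 32146 RPKM of Mup1 in the 3 STZ mice. Con-FMT mice were spread widely too. The summed list was at 3523 to 83024 RPKM in STZ and 11137 to 85300 RPKM in Con-FMT. The spread of both groups enters the 4-group fit, and its part in the count of calls was not tested. Hsd3b5, a male-specific steroid dehydrogenase, was at 163, 257 and 216 RPKM in Con and 3.04, 24.9 and 1.21 in A10-FMT (log2 change -5.09, SE 1.16, adjusted p = 0.0141, up to 0.0641 without A10-FMT 1 or A10-FMT 3). Serpina12, the adipokine vaspin, was at 14.3, 11.8 and 13.6 RPKM in Con and 1.59, 0.75 and 0.32 in A10-FMT (log2 change -2.97, SE 0.23, adjusted p = 7.69e-05). A10-FMT replicate 2 kept the most Hsd3b5 and Elovl3 of the 3 mice. Mup18, a major urinary protein gene, was at 46.6, 13.8 and 19.2 RPKM in Con and 1.8, 3.5 and 0.55 in A10-FMT (log2 change -3.17, SE 0.95, adjusted p = 0.0388, up to 0.144 with any 1 of the 6 mice left out). Mup1, the most abundant transcript of the Con livers, was at 68877, 60466 and 55703 RPKM in Con and 20009, 35673 and 13708 RPKM in A10-FMT, without overlap and not called (adjusted p = 0.623). Reads of Mup genes cannot be assigned with certainty, since their sequences are nearly the same.

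**Figure D4:**
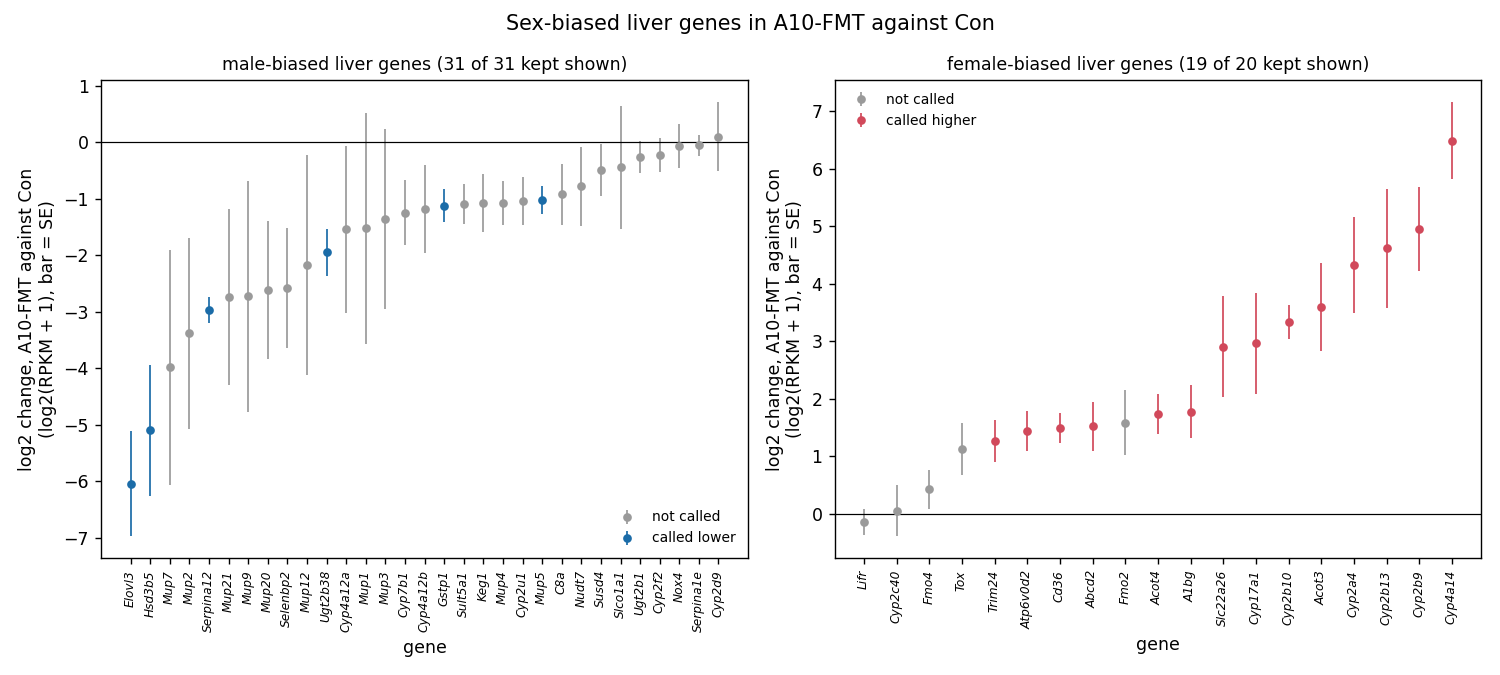
Log2 change (log2(RPKM + 1)) in A10-FMT against Con of each measured male-biased (left) and female-biased (right, 19 of 20 shown) liver gene, with bars of 1 SE. Coloured points passed an adjusted p of 0.05. Most male-biased genes lie below 0 with long bars, 6 of 31 called, and 14 of the 19 female-biased genes shown were called above 0.

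In the growth hormone, STAT5 and IGF list, 5 of 22 were higher and 2 lower (2 and 2 after scaling, 1 and 1 without Con replicate 3). The 2 lower were Stat5a and Stat5b, which encode the transcription factors that carry the growth hormone signal. Stat5a was at 4.37, 5.22 and 5.13 RPKM in Con and 2.71, 2.73 and 2.34 in A10-FMT (log2 change -0.72, SE 0.16, adjusted p = 0.0124, 0.0543 without A10-FMT 3). Stat5b was at 13.4, 14 and 13 RPKM in Con and 10.4, 10.4 and 8.91 in A10-FMT (log2 change -0.41, SE 0.11, adjusted p = 0.0287, up to 0.114 with any 1 of the 6 mice left out). Igfbp2, a fasting-induced IGF carrier, was at 164, 252 and 215 RPKM in Con and 633, 844 and 739 in A10-FMT (log2 change 1.82, SE 0.33, adjusted p = 0.00607). Igfbp4 was at 562, 537 and 549.6 RPKM in Con and 820.5, 836 and 920.1 in A10-FMT (log2 change 0.64, SE 0.15, adjusted p = 0.0148, up to 0.0673 without Con 3 or A10-FMT 3, 0.0563 after scaling). Dio1, the deiodinase that activates thyroid hormone and a known target of it, was at 73.2, 54.5 and 66.4 RPKM in Con and 3.29, 1.52 and 10.7 in A10-FMT (log2 change -3.70, SE 0.87, adjusted p = 0.0161, up to 0.0611 without Con 1, Con 3, A10-FMT 1 or A10-FMT 2), outside any list but among the 10 largest falls.

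Acute phase genes had calls on the lower side alone. Of 28 measured, 0 were higher and 9 lower (7 lower after scaling, 2 without Con replicate 3), with a median log2 change of -0.76. Saa2 and Saa1, serum amyloid A genes induced by interleukins in inflammation, had the largest falls of the list. Saa2 was at 7018, 300.0 and 3826 RPKM in Con and 19.3, 17.2 and 15.9 in A10-FMT (chr7:46751790-46754313, plus strand, log2 change -6.77, SE 1.23, adjusted p = 0.00600). Its neighbour Saa1, which shares most of its sequence with Saa2 and may share reads, was at 6422, 296 and 3569.8 RPKM in Con and 47.2, 39.7 and 29.2 in A10-FMT (chr7:46740497-46742980, minus strand, log2 change -5.60, SE 1.22, adjusted p = 0.0124, up to 0.0572 without Con 1, Con 3 or A10-FMT 3). Saa3, made by macrophages as well as liver, was at 344, 22.6 and 195 RPKM in Con and 6.88, 6.24 and 5.6 in A10-FMT (chr7:46711998-46715700, minus strand, log2 change -4.02, SE 0.82, adjusted p = 0.0102). The controls differed widely among themselves: Con replicate 1 was highest and Con replicate 2 more than 10 times lower in each of the 3 genes. The summed Kupffer cell markers were 210 to 286 RPKM in Con and 156 to 378 RPKM in A10-FMT, overlapping, and their part in the acute phase values was not tested.

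Other immune lists had calls at or below the rate of all genes. Of 24 MHC class I and immunoproteasome genes 0 were called, with the smallest adjusted p for H2-T22 at 11.8, 17.6 and 15.5 RPKM in Con and 34, 29 and 26 in A10-FMT (log2 change 0.95, SE 0.31, adjusted p = 0.0544). Of 36 interferon-stimulated genes 4 were higher and 0 lower (1 both after scaling and without Con replicate 3). Usp18, the negative regulator of the interferon receptor, was at 2.17, 1.78 and 2.71 RPKM in Con and 11.9, 7.53 and 11.1 in A10-FMT (log2 change 1.78, SE 0.20, adjusted p = 6.03e-04). Irf9, a subunit of the interferon-activated factor, was at 11.3, 11.3 and 12.9 RPKM in Con and 18.7, 14.9 and 14.6 in A10-FMT (log2 change 0.40, SE 0.12, adjusted p = 0.0348, up to 0.122 with any 1 of the 6 mice left out, 0.342 after scaling). Ifit1, which binds foreign RNA, was at 1.12, 1.23 and 0.96 RPKM in Con and 2.88, 1.89 and 2.22 in A10-FMT (log2 change 0.65, SE 0.19, adjusted p = 0.0363, up to 0.12 without Con 1, Con 2, Con 3, A10-FMT 1 or A10-FMT 3, 0.098 after scaling). In the endotoxin sensing and inflammation list 2 of 20 were higher and 0 lower (1 both after scaling and without Con replicate 3), which were the genes of the NF-κB regulators Nfkbia and Nfkbiz. Nfkbia was at 11.9, 16.5 and 13 RPKM in Con and 21.1, 21.8 and 26.7 in A10-FMT (log2 change 0.71, SE 0.16, adjusted p = 0.0129, up to 0.0611 without Con 1, Con 3 or A10-FMT 3). Nfkbiz was at 3.13, 2.62 and 3.19 RPKM in Con and 4.4, 4.1 and 4.29 in A10-FMT (log2 change 0.41, SE 0.10, adjusted p = 0.0191, up to 0.0662 without Con 1, Con 2, A10-FMT 1 or A10-FMT 3, 0.181 after scaling). Of 16 lymphocyte markers 2 passed the filter, and Cd4 was lower at 1.29, 1.03 and 1.16 RPKM in Con and 0.31, 0.39 and 0.300 in A10-FMT (log2 change -0.69, SE 0.09, adjusted p = 0.0016).

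Antioxidant genes were partly higher, with 9 of 30 higher and 1 lower (4 and 1 after scaling, 4 and 0 without Con replicate 3). Nfe2l2, which encodes the regulator NRF2, was at 23.3, 25.9 and 24.8 RPKM in Con and 43.7, 47.8 and 41.1 in A10-FMT (log2 change 0.82, SE 0.11, adjusted p = 0.0016). Its target Nqo1, a quinone reductase, was at 0.94, 1.71 and 1.48 RPKM in Con and 7.01, 6.73 and 7.11 in A10-FMT (log2 change 1.76, SE 0.30, adjusted p = 0.0045). The peroxiredoxin Prdx6 was at 141, 158 and 153 RPKM in Con and 255, 247 and 263 in A10-FMT (log2 change 0.75, SE 0.14, adjusted p = 0.00636). Osgin1, an oxidative stress-induced growth inhibitor, was at 349, 223 and 315 RPKM in Con and 113, 169 and 120.1 in A10-FMT (log2 change -1.13, SE 0.31, adjusted p = 0.0294, up to 0.111 without Con 1, Con 3, A10-FMT 1 or A10-FMT 3). The main superoxide and peroxide enzymes did not pass the test. Their mice did not overlap between the groups, which held on the higher side for 42.2% of all genes. Sod1 was at 1220.0, 1517 and 1457 RPKM in Con and 1543, 1677 and 1689 in A10-FMT (log2 change 0.23, SE 0.16, adjusted p = 0.326). Sod2 was at 52.8, 51.8 and 54.3 RPKM in Con and 58.9, 60.8 and 61.9 in A10-FMT (log2 change 0.19, SE 0.12, adjusted p = 0.281). Cat, catalase, was at 933, 1237 and 1090.1 RPKM in Con and 1295, 1416 and 1305 in A10-FMT (log2 change 0.31, SE 0.20, adjusted p = 0.281). Sod2 changed sign after median-ratio scaling (-0.01).

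Targets of p53 were higher in 7 of 27 and lower in 0 (4 after scaling, 5 without Con replicate 3), against 17.0% of all genes higher (6.21% after scaling). Phlda3, a p53-induced inhibitor of AKT, was at 0.23, 0.19 and 0.28 RPKM in Con and 2.56, 2.22 and 3.02 in A10-FMT (log2 change 1.54, SE 0.19, adjusted p = 9.83e-04). Ccng1, cyclin G1, was at 9.25, 10.1 and 10.1 RPKM in Con and 20.9, 18.2 and 19.5 in A10-FMT (log2 change 0.92, SE 0.11, adjusted p = 9.40e-04). The nuclease Aen was at 7.25, 5.9 and 6.3 RPKM in Con and 12.6, 12.4 and 15 in A10-FMT (log2 change 0.94, SE 0.10, adjusted p = 6.35e-04). In the same list the apoptosis regulators Bax and Bcl2l1 had overlapping mice and were not called. Bax, which promotes cell death, was at 28, 24.5 and 25.1 RPKM in Con and 33.1, 26.8 and 32.3 in A10-FMT (log2 change 0.24, SE 0.13, adjusted p = 0.226). Bcl2l1, which opposes it, was at 11.7, 13.4 and 12.6 RPKM in Con and 12.9, 12.6 and 10.9 in A10-FMT (log2 change -0.05, SE 0.15, adjusted p = 0.846).

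The other STZ groups were compared with the same 3 control mice, so their calls are not independent of those above. STZ against Con gave 3988 calls (39.0%), 33.3% of genes higher and 5.71% lower. Con-FMT against Con gave 2100 calls (20.5%), 18.5% higher and 2.01% lower. Of the 20 clock genes, 11 were higher and 3 lower in STZ, and 6 were higher and 4 lower in Con-FMT. Of the 47 genes of the urea cycle and amino acid catabolism, 35 were higher in STZ and 33 in Con-FMT. Of the 31 male-biased genes, 27 were lower in STZ and 7 in Con-FMT, and 17 and 9 of the 20 female-biased genes were higher. Acute phase genes were lower in 10 of 28 in STZ and in 5 in Con-FMT. Whether these list counts differ between the STZ groups was not tested.

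A10-FMT against STZ gave 23 of 10229 genes (0.225%), 7 higher (0.0684%) and 16 lower (0.156%). Scaling raised the count, to 97 with median ratios, 85 with centred medians and 48 with quantiles, and a fit of all 6 groups gave 51. It also moved with single mice and was 1294 without STZ replicate 3, and 0 without Con replicate 3, without A10-FMT replicate 2 or without A10-FMT replicate 3. There were 9 genes called both in this contrast and against Con, of which Cetn2 and Mreg are not described further. Lepr, the leptin receptor gene (chr4:101717404-101815352, plus strand), was at 0.14, 0.14 and 0.17 RPKM in Con and 2.99, 2.44 and 4.45 in A10-FMT (log2 change 1.87, SE 0.46, adjusted p = 0.0192, up to 0.0795 without Con 1, Con 3, A10-FMT 1 or A10-FMT 3) and at 46.3, 42.1 and 21.7 RPKM in the STZ mice, so A10-FMT lay above Con and below STZ (log2 change -3.09 against STZ, adjusted p = 0.0284). Csad, at 14.6, 14.4 and 14.8 RPKM in STZ, also lay between Con and STZ (log2 change 1.86 against STZ, adjusted p = 0.0467). The calcium-binding protein gene Cib3, at 3.81, 6.48 and 5.83 RPKM in Con, 2.64, 3.52 and 1.79 RPKM in A10-FMT and 0.69, 0.14 and 0.13 RPKM in STZ, did so too (adjusted p = 0.0284 against STZ, and against Con adjusted p = 0.0300, up to 0.118 without Con 2, Con 3, A10-FMT 1 or A10-FMT 3). Spred1, an inhibitor of RAS signalling, was at 1.94, 1.81 and 1.97 RPKM in Con, 2.9, 2.4 and 3.01 RPKM in A10-FMT and 4.99, 4.83 and 4.24 RPKM in STZ. Rnf39 was at 2.35, 1.71 and 1.88 RPKM in Con, 2.74, 2.91 and 3.9 RPKM in A10-FMT and 6.04, 5.78 and 6.16 RPKM in STZ (adjusted p = 0.0284 and 0.0284 against STZ). In values as deposited both lay above Con and below STZ in A10-FMT. Against Con the values were adjusted p = 0.0192, up to 0.0842 without Con 1, Con 2, Con 3, A10-FMT 1 or A10-FMT 3, 0.111 after scaling for Spred1, and adjusted p = 0.0169, up to 0.0671 without Con 2, Con 3 or A10-FMT 3, 0.116 after scaling for Rnf39.

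A different order held for Stat5b and for Klf12, a transcriptional repressor. Klf12 was at 5.19, 6.5 and 5.41 RPKM in Con, 4.44, 4.36 and 4.45 RPKM in A10-FMT and 7.82, 7.47 and 6.88 RPKM in STZ, and A10-FMT was lower than both (adjusted p = 0.0284 against STZ, and against Con adjusted p = 0.0381, up to 0.113 with any 1 of the 6 mice left out). Its call against Con was lost also with the replicate block. Stat5b, at 14.6, 19.5 and 16.2 RPKM in STZ, was likewise lower than both (adjusted p = 0.0361 against STZ), and its call against Con, as Klf12's, was lost with any 1 of the 6 mice left out. Id1, a target of BMP signalling, was not called against Con but was lower than in STZ. It was at 3.77, 4.06 and 3.9 RPKM in Con and 4.92, 4.86 and 3.66 in A10-FMT (log2 change 0.15, SE 0.18, adjusted p = 0.578), against 17.2, 14 and 11.2 RPKM in STZ (log2 change -1.46, adjusted p = 0.0275). Igfbp1, at 334, 976 and 190.3 RPKM in STZ, missed the threshold in both contrasts (adjusted p = 0.0599 against STZ).

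A10-FMT against Con-FMT gave 0 calls (0.0%) in limma in values as deposited and under each alternative fitted, and 290 genes at an unadjusted p under 0.05. The Con-FMT mice had 890.3, 151 and 461 RPKM of Cyp4a10, 1690.1, 817 and 1386 RPKM of Pck1 and 1296, 408 and 846 RPKM of Oat. For Lepr the Con-FMT values were 9.29, 1.14 and 5.15 RPKM and for Arntl 6.17, 4.69 and 3.79 RPKM. Among the genes just given, all A10-FMT mice lay below all Con-FMT mice for Arntl alone (log2 change -1.29, adjusted p = 0.999). Other genes described above separated too. They included Npas2, Klf12, Aen, Ccng1 and Phlda3 in that direction, and Csad, Cib3, Dbp, Nr1d2, Idi1 and Elovl6 in the opposite one. The share of all genes that separated between A10-FMT and Con-FMT was not counted. Both comparisons with Con share the same 3 control mice, and a missed threshold does not show that the transplants acted alike.

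**Figure D5:**
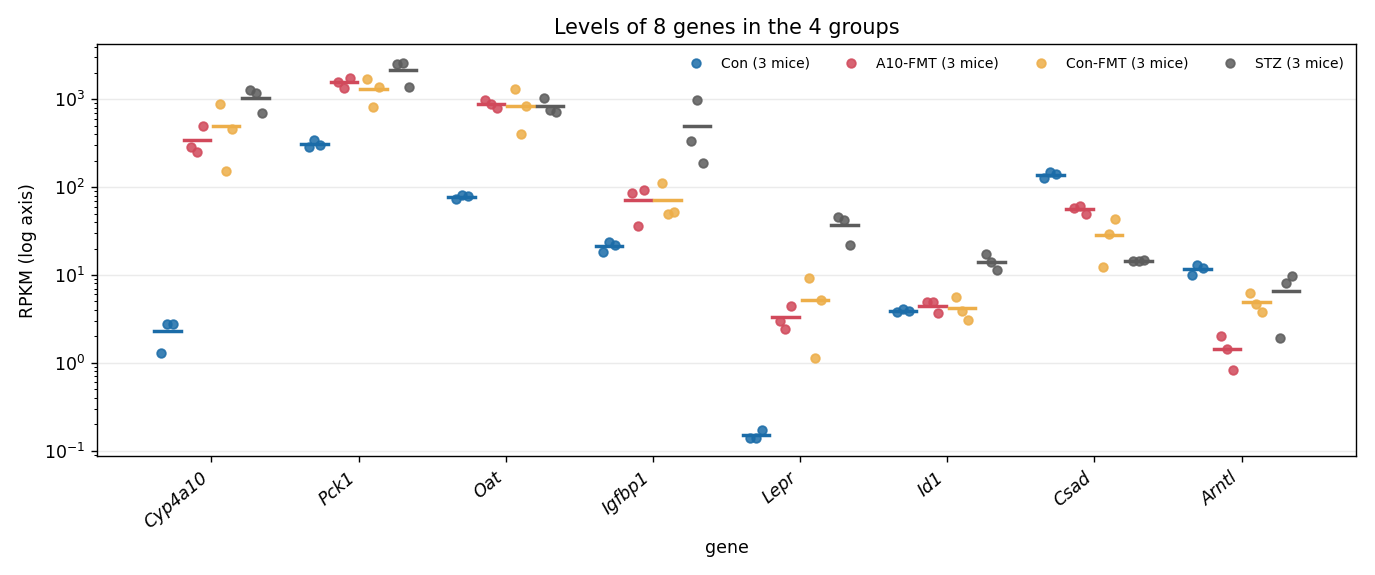
Level of 8 genes in RPKM (log axis) in each mouse of Con, A10-FMT, Con-FMT and STZ, with bars at the group means. A10-FMT lies beside Con for Id1, between Con and STZ for Lepr and Csad, apart from Con and near STZ for Oat, and lowest of the 4 groups by mean for Arntl.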

How the data were processed

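Liver libraries of 3 Con and 3 A10-FMT mice were compared, and those of 3 STZ and 3 Con-FMT mice shared the estimate of spread. The authors deposited 1 RPKM value per gene and library. The labels name mm10 and Bowtie 0.12.2 without a role, and the methods of the paper name SOAPaligner, so the aligner of these values is unsure. RPKM already hold the authors' division by transcript length and mapped reads, which lets a few abundant liver transcripts shift all other genes. The authors' own calls and reads were not used.

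Of 19057 symbols, 26 look like dates after conversion by a spreadsheet and are not named, and 3 are repeated. Genes at 1 RPKM or more in 3 of 6 libraries were kept, 1 was added, and log2 values were fitted with limma 3.58.1 (R 4.3.3, lmFit, contrasts.fit, eBayes with trend) on 12 libraries, two-sided, with Benjamini-Hochberg adjustment over 10229 genes. No count test fits RPKM. The labels do not say more on how mice were housed or paired, so p-values measure the spread between these samples. The step was tested on simulated data. Mice share numbers 1 to 3 across groups: deviations of same-numbered Con and A10-FMT mice correlated at 0.155, 0.0915 and 0.0629, so the numbers were not taken as pairs.

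Genes were named by rule: the 10 largest rises and 10 largest falls called, without overlap and with a mean of 5 RPKM or more in the higher group, at most 3 called members per direction of each list (or the nearest 1), 14 genes of prior interest, and at most 5 also called against STZ. A few of these genes are not reported here, though list counts include them. Clock genes shown with promoters, and Mup1, were added after their values were seen. Members, lists and rule were chosen with earlier results of these data known, and lists share members. Alternatives were other scalings (median-ratio, quantile, median centring), a pseudocount of 0.1, other filters, limma without trend, other groups in the fit, a replicate block and leaving out each mouse. Positions are from GENCODE M21 (GRCm38), where 137 of 137 named symbols matched, and promoters from RefSeq (GRCm38.p6). AOS and STZ+AOS mice entered only the fit of all 6 groups.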

Additional observations from a re-analysis of the deposited data

How the results depend on the processing

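All 122 called genes named by rule kept their direction under the 18 alternatives, and 69 were called under each in which they were tested. The 2014 calls (1741 higher, 273 lower) moved by more than 1.5 times under median-ratio scaling (1172, with 635 and 537), quantile normalization (1153, with 613 and 540), median centring (1194, with 627 and 567), only A10-FMT and Con in the fit (3355, with 2852 and 503) and at an adjusted p of 0.001 or less with an absolute log2 change of 1 or more (35). With median-ratio scaling and these 2 groups alone, a fit chosen after seeing the data, the lower calls were 1002. Of 810 distinct members of the lists, 278 were called, and 183 under quantile normalization, 182 with no filter and 441 with 2 groups in the fit. Leaving out 1 mouse gave 641 to 2694 calls (510 to 2304 higher and 104 to 390 lower), 131 to 351 members of lists and 80 to 126 of the named genes, the highest counts being without STZ replicate 3, added after seeing the data. A replicate block by the label numbers gave 1514 calls (1287 higher, 227 lower). Each A10-FMT mouse correlated best with the Con mouse of its own number, though all correlations were small. For A10-FMT replicate 3 the values were 0.0629 with Con replicate 3 and 0.0407 with Con replicate 2. Whether the numbers mark pairs was not tested. Log2 changes of 4 genes that were not called changed sign: Id1 (-0.0168 with median-ratio scaling, -0.027 with median centring, -0.0127 with scaling and 2 groups), Sod2 (-0.0148, -0.0785 with quantile normalization and -0.0101 with scaling and 2 groups), Bax (-0.00755 with quantile normalization) and Bcl2l1 (-0.0922 to 0.0224 with 1 mouse left out, the latter without A10-FMT replicate 3). The causes were not tested, apart from fewer samples and the recentring that scaling brings by construction. Read counts are not used here, and the counting error of genes near 1 RPKM is unknown.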

Other observations

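Several further lists were described. Of 50 oxidative phosphorylation genes 12 were higher and 0 lower, against 17.0% of all genes higher. After median-ratio scaling 1 was higher, against 6.21% of all genes, and without Con replicate 3 the count was 0. Ndufs1, a complex I subunit, was at 29.4, 41.2 and 35.2 RPKM in Con and 52.9, 52.5 and 52.3 in A10-FMT (log2 change 0.57, SE 0.15, adjusted p = 0.0213, up to 0.0906 without Con 1, Con 3, A10-FMT 1, A10-FMT 2 or A10-FMT 3). The complex II subunit Sdha was at 94.7, 117 and 106 RPKM in Con and 147, 135 and 152 in A10-FMT (log2 change 0.45, SE 0.12, adjusted p = 0.0256, up to 0.102 without Con 1, Con 3, A10-FMT 1 or A10-FMT 3, 0.0888 after scaling). Its partner Sdhc was at 106, 119 and 116 RPKM in Con and 158, 159 and 160.0 in A10-FMT (log2 change 0.48, SE 0.13, adjusted p = 0.0261, up to 0.0966 without Con 1, Con 3, A10-FMT 1, A10-FMT 2 or A10-FMT 3, 0.0893 after scaling). None of 76 cytosolic ribosomal protein genes was called, with the smallest adjusted p for Rplp0 at 287, 299 and 308 RPKM in Con and 383, 374 and 408 in A10-FMT (log2 change 0.38, SE 0.15, adjusted p = 0.1002). In the unfolded protein and integrated stress response list 5 of 30 were higher, near the 17.0% of all genes, and 3 lower, above the 2.67% of all genes. The counts were 3 and 5 after scaling, against 6.21% and 5.25% of all genes, and 4 and 1 without Con replicate 3. Herpud1, of endoplasmic reticulum degradation, was at 68.8, 79.5 and 75 RPKM in Con and 138, 148 and 175 in A10-FMT (log2 change 1.03, SE 0.19, adjusted p = 0.00687), and the pseudokinase Trib3 at 1.32, 1.65 and 1.44 RPKM in Con and 8.86, 15.8 and 6.64 in A10-FMT (log2 change 2.13, SE 0.45, adjusted p = 0.0111). The chaperone genes Sdf2l1, at 38.9, 39.7 and 41.5 RPKM in Con and 13, 9.3 and 9.64 in A10-FMT (log2 change -1.83, SE 0.41, adjusted p = 0.0134, up to 0.0543 without Con 1 or A10-FMT 3), Pdia3, at 238, 251 and 244 RPKM in Con and 173, 176 and 150.0 in A10-FMT (log2 change -0.56, SE 0.16, adjusted p = 0.0356, up to 0.129 with any 1 of the 6 mice left out), and Calr, at 552, 588 and 559.9 RPKM in Con and 397, 389.9 and 304 in A10-FMT (log2 change -0.65, SE 0.20, adjusted p = 0.0452, up to 0.164 with any 1 of the 6 mice left out), fell.

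Of 33 cell cycle genes 12 passed the filter, 4 higher and 2 lower (2 and 2 both after scaling and without Con replicate 3). Ccnd1, cyclin D1, was at 3.49, 1.39 and 2.5 RPKM in Con and 21.6, 13.6 and 13.3 in A10-FMT (log2 change 2.32, SE 0.38, adjusted p = 0.00372). The replication factor Pcna was at 15.1, 15 and 15.6 RPKM in Con and 22.9, 24.1 and 24.8 in A10-FMT (log2 change 0.61, SE 0.11, adjusted p = 0.00607), and Ccnd3 at 16.4, 18.9 and 17.9 RPKM in Con and 26.8, 27.8 and 30.0 in A10-FMT (log2 change 0.64, SE 0.19, adjusted p = 0.0382, up to 0.127 with any 1 of the 6 mice left out, 0.111 after scaling). E2f8, a repressor of the cell cycle that promotes polyploid hepatocytes, was at 2.77, 3.14 and 3.15 RPKM in Con and 0.35, 0.52 and 0.31 in A10-FMT (log2 change -1.53, SE 0.18, adjusted p = 8.04e-04), and the helicase subunit Mcm7 at 6.48, 5.93 and 5.43 RPKM in Con and 3.86, 4.29 and 4.78 in A10-FMT (log2 change -0.39, SE 0.10, adjusted p = 0.0203, up to 0.086 without Con 1, A10-FMT 1 or A10-FMT 2). In the BMP, iron and Id list 7 of 24 were higher and 1 lower (3 and 2 after scaling, 3 and 1 without Con replicate 3). Ferritin heavy chain Fth1 was at 1307, 1396 and 1376 RPKM in Con and 2199.5, 2228 and 2407 in A10-FMT (log2 change 0.74, SE 0.17, adjusted p = 0.0131, up to 0.0624 without Con 1 or A10-FMT 3), the metal importer Slc39a14 at 27.8, 26.4 and 27.1 RPKM in Con and 43.2, 35.9 and 40.9 in A10-FMT (log2 change 0.54, SE 0.12, adjusted p = 0.0116, 0.0767 after scaling), Atoh8 at 7.33, 8.34 and 9.55 RPKM in Con and 14.9, 12.6 and 14.1 in A10-FMT (log2 change 0.66, SE 0.13, adjusted p = 0.00954), and the iron transporter Slc11a2, which fell, at 13.9, 10.9 and 12 RPKM in Con and 7.26, 7.23 and 6.68 in A10-FMT (log2 change -0.72, SE 0.14, adjusted p = 0.00932).

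Of 5 bile duct markers that passed the filter 2 were lower. Among them, Sox9, was at 2.39, 1.95 and 2.08 RPKM in Con and 0.75, 0.97 and 0.65 in A10-FMT (log2 change -0.81, SE 0.17, adjusted p = 0.0113, 0.0509 without Con 1). The elastase gene Cela1, of the pancreas list, was at 30.8, 40.5 and 36.3 RPKM in Con and 8.71, 8.29 and 7.66 in A10-FMT (log2 change -1.99, SE 0.33, adjusted p = 0.0035). Not called were Folr2 of Kupffer cells (6.84, 3.94 and 4.8 RPKM in Con and 11.3, 4.72 and 10.3 in A10-FMT), Pecam1 of endothelium (2.66, 3.79 and 2.9 RPKM in Con and 4.63, 3.42 and 4.74 in A10-FMT), Acta2 of stellate cells (0.57, 0.99 and 0.33 RPKM in Con and 1.56, 1.44 and 1.5 in A10-FMT), S100a8 of neutrophils (4.13, 1.91 and 3.08 RPKM in Con and 0.86, 0.58 and 2.0 in A10-FMT) and Alas2 of red blood cells (117, 114 and 121 RPKM in Con and 47.8, 37.1 and 44.1 in A10-FMT).

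Mice in no comparison above carried AOS alone or STZ with AOS given directly. Cyp4a10 was at 17.2, 3.72 and 8.03 RPKM in AOS mice and 1097, 1305 and 1168 RPKM in STZ+AOS mice. Dbp was at 3.41, 0.36 and 1.78 RPKM in AOS mice and 16.6, 76.5 and 24.3 RPKM in STZ+AOS mice, and Lepr at 0.37, 0.13 and 0.19 RPKM and 58.6, 45.4 and 122 RPKM. AOS mice thus lay nearer to Con, and STZ+AOS mice above all A10-FMT mice, for Cyp4a10 and Lepr. This did not hold for all genes. AOS mice had 110, 23.7 and 53.95 RPKM of Saa2 and 3914, 4262 and 3798 RPKM of Gstp1, nearer to A10-FMT than to Con. Mean Saa2 was 3714 RPKM in Con, 17.5 in A10-FMT, 103 in STZ, 53.5 in Con-FMT, 62.6 in AOS and 1064 in STZ+AOS. The low Saa2 level was therefore not particular to A10-FMT.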
